A study of Mus musculus with 12 samples.

Results

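The respiratory chain is described here through its subunit genes, both those in the nucleus and those in mitochondrial DNA. Members were taken by symbol: names beginning with Nduf (assembly factors beginning with Ndufaf left out), Uqcr, Cox4 to Cox8 or Atp5, the genes Sdha to Sdhd, Cyc1 and Cycs, and the mitochondrial mt-Nd, mt-Co, mt-Cytb and mt-Atp genes, without pseudogene names and with a mean count of at least 10 over the 12 libraries. The rule gave 89 members of 41388 genes, 82 nuclear and 7 mitochondrially encoded. Complex I had 36 nuclear and 5 mitochondrial members, complex II 4, complex III 9 and 1, cytochrome c 1, complex IV 15 and 1, and complex V 17. All 89 had enough counts to be tested. Another 9 nuclear and 6 mitochondrial genes matched by name but fell below the mean count. Among the members of complex IV is Ndufa4, which carries a complex I name, and among those of complex V is Atp5s, a factor B gene of the same name family.

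The libraries were RNA-seq of mouse peritoneal macrophages drawn into the abdomen by thioglycolate, an irritant broth, taken on day 4, plated and treated for 8 h the next day. There were 4 groups of 3 libraries. The first was labelled PPARγ knockout and received the saturated fatty acid palmitate at 250 uM and LPS, a bacterial cell wall component, at 100 ng/ml. The second was Cre control cells with the same palmitate and LPS, the third was labelled knockout with vehicle (BSA in PBS), and the fourth was Cre control cells with vehicle. Both genotypes carry LysM-Cre, a recombinase expressed from the Lyz2 locus in macrophages and neutrophils, so every group shares thioglycolate, plating and Cre. Nothing in the labels says whether the 3 libraries of a group came from separate animals or cultures, so p-values measure only the spread between these libraries. Below, "stimulated" means palmitate plus LPS.

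The chain moves electrons from NADH through complex I, or from succinate through complex II, to ubiquinone, then through complex III and cytochrome c to oxygen at complex IV, while complex V makes ATP from the resulting proton gradient. Mammalian mitochondrial DNA encodes core subunits of complexes I, III, IV and V and none of complex II, and its genes are transcribed as long polycistronic RNAs by machinery separate from that of the nucleus. In macrophages, LPS is known to shift ATP production towards glycolysis and to change how electrons pass through complexes I and II.

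Library totals ranged over 17960457 to 22696385 counts, so that 3 counts, taken as the limit of detection, were worth 0.132 to 0.167 CPM (counts scaled to a common library total). All 8 macrophage markers were detected. Their summed level, mostly Lgals3 and Cd68, was 14054 to 15167 CPM in stimulated libraries and 17020 to 22995 CPM in vehicle libraries. Single markers went both ways with stimulation. In controls Lgals3 averaged 7084 CPM when stimulated against 11637 CPM with vehicle, and Cd68, Csf1r and Itgam were also lower. Cd14 averaged 2090 CPM against 270 CPM, and Adgre1, Lyz2 and Mertk were also higher. Pparg, the gene named by the knockout label, did not fall in the libraries labelled knockout: it had 4.45 ± 0.765 CPM in stimulated libraries labelled knockout and 3.55 ± 0.647 CPM in stimulated controls, and 99.4 ± 10.6 CPM in vehicle libraries labelled knockout against 61.6 ± 0.687 CPM in vehicle controls (SD, n = 3 each). The vehicle difference was +0.69 ± 0.11 (log2, SE) with an adjusted p of 0.0012 by edgeR's quasi-likelihood test. A count over all exons cannot check the deletion of some of them, so genotype groups are called by their labels.

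The vehicle library labelled knockout, replicate 1, stood apart. Compared with the mean of its 2 replicates, 78 of 82 nuclear members were higher in it, with a median log2 difference of 0.61. Uqcrfs1, the Rieske iron-sulphur protein of complex III, went the other way, with 445 counts in replicate 1 against 1828 and 2104 in replicates 2 and 3. The chi-square statistic of the counts per degree of freedom was 40.7 and 46.2 between it and its replicates, and 2.42 to 11.8 for the other pairs of replicates. Because all groups shared 1 estimate of the spread, this library also widened the errors of comparisons it is not part of, and results below are given with and without it.

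**Figure D1:**
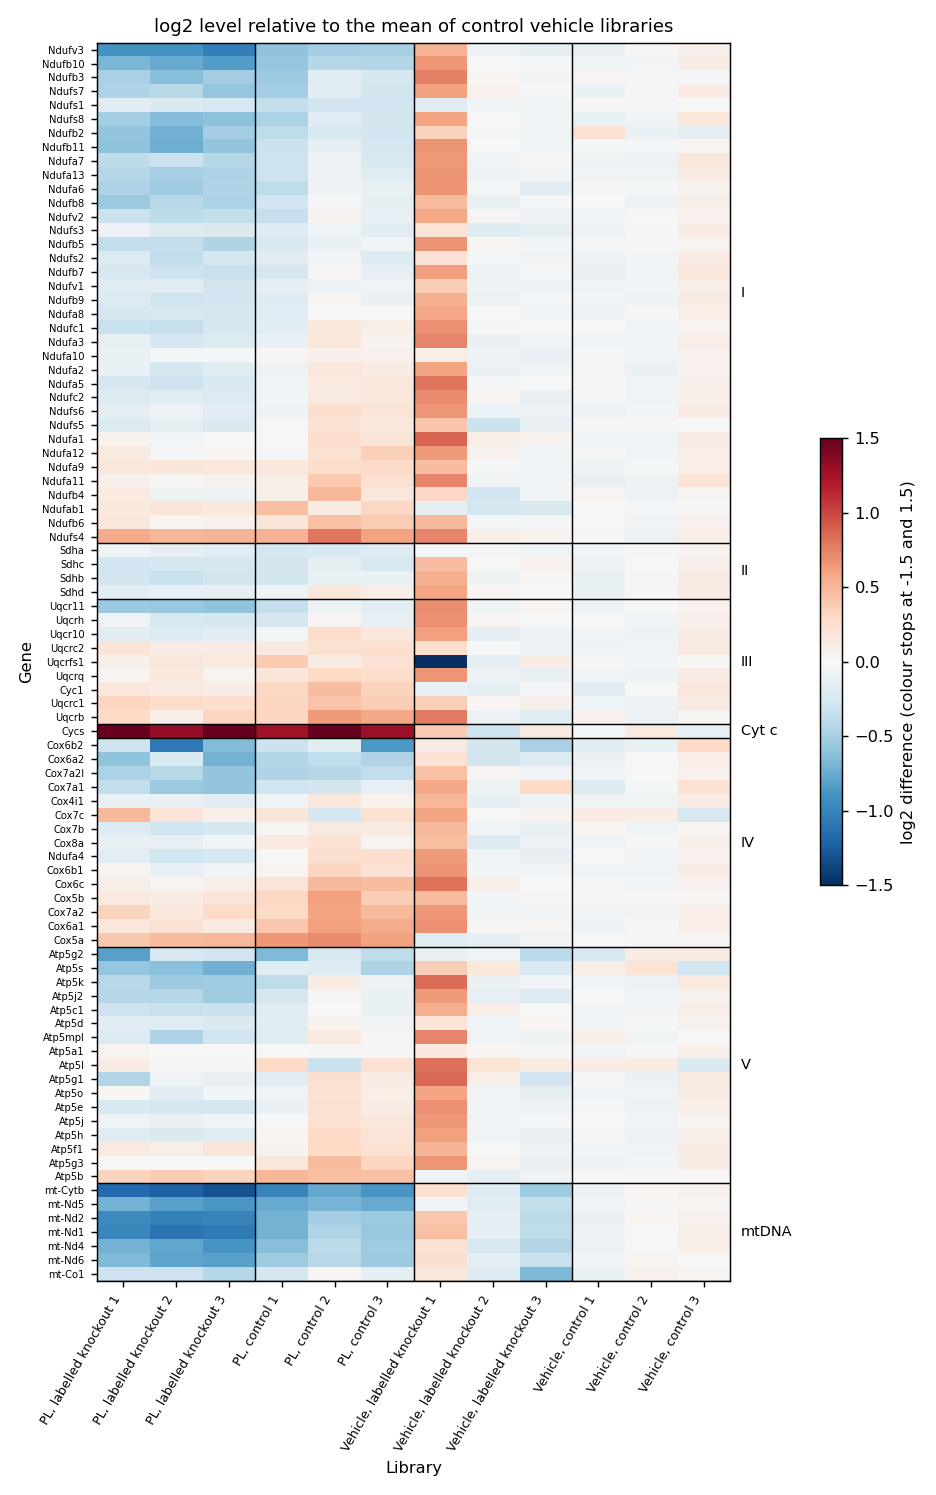
Log2 level of each of the 89 members (rows, grouped by complex, mitochondrially encoded genes at the bottom) in each of the 12 libraries (columns), relative to the mean of the vehicle control libraries. The mitochondrial block and many complex I rows are blue in the 3 stimulated libraries labelled knockout. The mitochondrial rows other than mt-Co1 are also below the vehicle control mean in the 3 stimulated controls. Cycs is dark red in all 6 stimulated libraries. Replicate 1 of the vehicle libraries labelled knockout is above the vehicle control mean in 74 of 82 nuclear rows. Replicates 2 and 3 of that group are above it in 25 and 19 rows.

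Levels were compared between genes per kilobase of exon (RPKM). In vehicle controls the highest members were mitochondrial: mt-Nd1 averaged 1682 ± 96.0 RPKM, mt-Cytb 1454 ± 81.2 RPKM and mt-Co1 1239 ± 77.5 RPKM (SD, n = 3). The next were mt-Nd5 at 389 RPKM, mt-Nd6 at 354 RPKM, mt-Nd2 at 353 RPKM and then the nuclear Cox4i1 at 343 RPKM, Cox6b1 at 339 RPKM and Cox6a1 at 325 RPKM. The lowest were Cycs at 0.649 RPKM, Cox6b2 at 0.717 RPKM, Atp5g1 at 0.896 RPKM, Atp5g2 at 0.980 RPKM and Ndufb2 at 1.11 RPKM. Cytochrome c, encoded by Cycs, is an obligate part of the chain. Other annotated transcripts matched 33.8% of the Cycs transcript at 98% identity or more over at least 50 bases, so its level is uncertain.

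Near-identical copies also bear on the mitochondrial genes. In all 12 libraries together mt-Co2, mt-Atp6, mt-Atp8 and mt-Nd4l had 0 counts, mt-Co3 had 2 and mt-Nd3 had 60, although neighbours on the same chromosome were among the highest genes measured. Annotated transcripts of nuclear insertions matched 99.56% of mt-Co2, 99.87% of mt-Co3, 99.56% of mt-Atp6, 98.99% of mt-Nd4l and 99.14% of mt-Nd3, whereas mt-Nd1, mt-Nd2, mt-Nd5, mt-Nd6 and mt-Cytb had no such match. The short mt-Atp8 had 0 counts and no match, and mt-Nd4, with 63.57% matched, and mt-Co1, with 31.26%, were counted at high levels. How reads that fit several places were counted is not given in the sources used here, so mt-Nd4 and the 5 nuclear members with at least 50% matched, Ndufs3, Uqcrb, Atp5f1, Atp5h and Atp5l, are uncertain.

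In control cells, palmitate plus LPS lowered most mitochondrially encoded members, while nuclear members moved in both directions. Of the 7 mitochondrial members, 6 fell and none rose, with a median log2 change of -0.57. Of the 82 nuclear members, 13 rose, 6 fell and 63 did not pass the test, with a median of 0.06. The number that passed depended on the spread estimated from the other groups. On the same 6 libraries 45 passed with replicate 1 of the vehicle libraries labelled knockout out of the fit. When these 2 groups were fitted alone 41 passed. In those fits 72.6% and 74.2% of all genes passed in either direction. Across all 12914 genes tested, 32.0% rose and 34.7% fell in this comparison with a median of -0.05, and with all libraries in the fit both shares of the nuclear members were below these. Libraries of the 2 groups did not overlap for 19 nuclear members that were higher and 17 that were lower, where 35.9% and 38.9% of all genes did so. Scaling by total counts, which moves the median of all genes to -0.38, gave 2644 genes higher and 6416 lower in place of 4132 and 4480. Of the nuclear members 3, namely Cycs, Cox5a and Ndufs4, were then higher and 41 lower, all 7 mitochondrial members were lower, and the nuclear median then stood 0.104 above that of all genes, the same distance as with the scaling used here. In bulk libraries, fewer cells of a type and less RNA per cell cannot be told apart.

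The 6 mitochondrial members that fell belong to complexes I and III. mt-Cytb, cytochrome b of complex III, had 831, 979 and 907 CPM in stimulated controls, against 1559, 1694 and 1737 CPM in vehicle controls. Every stimulated library was below every vehicle one, a log2 change of -0.88 ± 0.14 (SE, edgeR adjusted p = 4.77e-05). mt-Nd5, a proton-pumping subunit of complex I, had 421, 437 and 419 CPM in stimulated controls, against 680, 715 and 731 CPM in vehicle controls. These groups were also apart, with a change of -0.74 ± 0.08 (edgeR adjusted p = 1.22e-06). The other complex I genes fell by similar amounts: mt-Nd2 changed by -0.59, mt-Nd1 by -0.57, mt-Nd4 by -0.52 and mt-Nd6, which lies on the opposite strand of the mitochondrial genome, by -0.50 on the log2 scale. The end of mt-Nd6 overlaps mt-Nd5 and the strand setting is not known. Its counts therefore cannot be told from RNA of the other strand. The catalytic core of complex IV, mt-Co1, had 1598, 1952 and 1732 CPM in stimulated controls, against 1776, 1996 and 1969 CPM in vehicle controls, and these overlapped (-0.12 ± 0.15, edgeR adjusted p = 0.491). Summed over the 7 genes, the level was 3668, 4324 and 3962 RPKM in stimulated controls and 5420, 5859 and 6007 RPKM in vehicle controls.

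The mitochondrial ribosomal RNAs, which are no members and were looked up after the members' values were seen, are described beside them. mt-Rnr1, the small ribosomal RNA, was higher in stimulated than in vehicle controls by 0.58 ± 0.15 (log2, edgeR adjusted p = 0.0024), and mt-Rnr2, the large one, differed by 0.19 ± 0.13 and did not pass (adjusted p = 0.203).

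**Figure D2:**
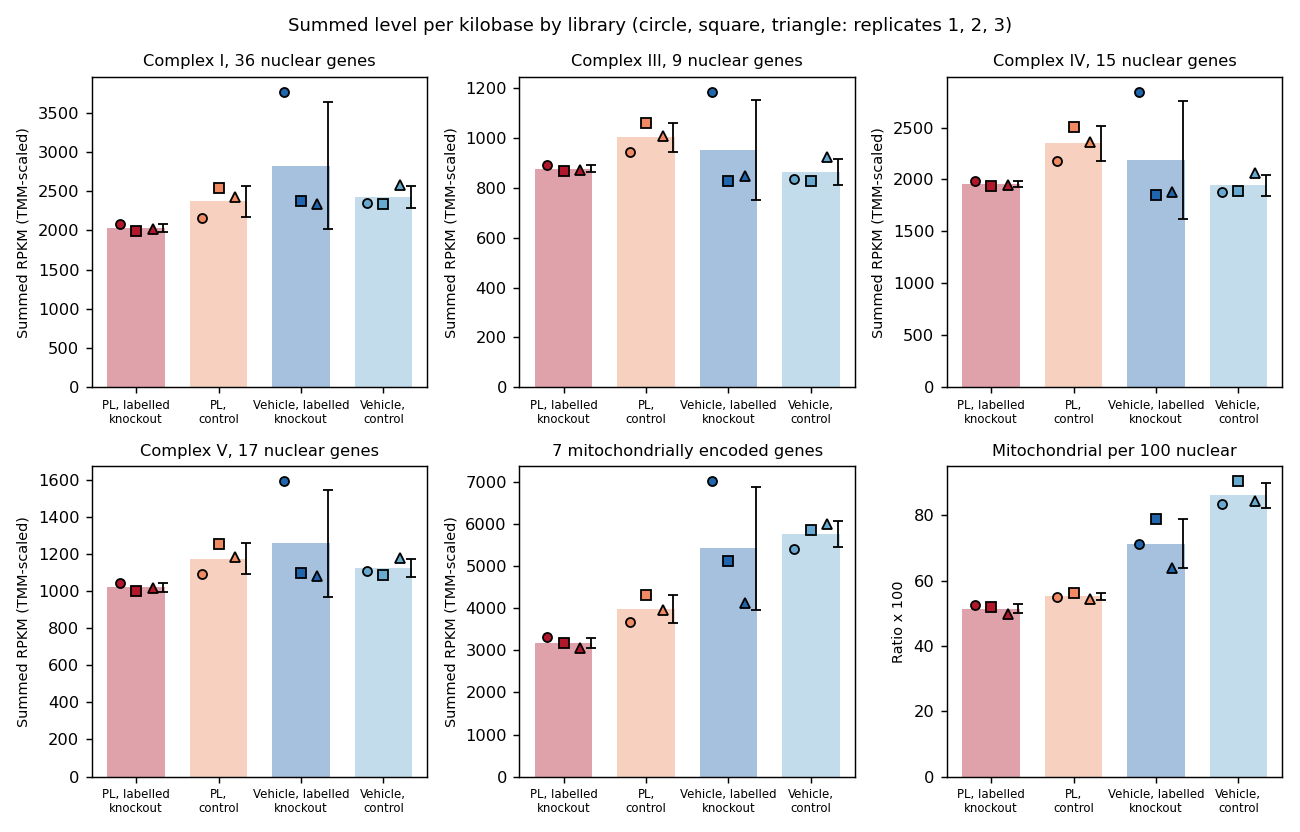
Summed level per kilobase (RPKM after TMM scaling, linear axes from 0) of the nuclear members of complexes I, III, IV and V and of the 7 mitochondrially encoded members, and the mitochondrial sum per 100 of the nuclear sum, in each library (points), with bars for group means and whiskers for the SD of 3 libraries. The mitochondrial sum per 100 nuclear is 49.7 to 56.2 in the 6 stimulated libraries and 63.8 to 90.4 in the 6 vehicle libraries, and replicate 1 of the vehicle libraries labelled knockout is the highest in each of the first 5 panels.

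Among nuclear genes in control cells, the largest rise was that of cytochrome c, which shuttles electrons between complexes III and IV. Its gene Cycs had 6.0, 7.39 and 6.11 CPM in stimulated controls, against 2.17, 2.49 and 1.97 CPM in vehicle controls. It stood apart without overlap and rose by 1.55 ± 0.19 (log2, edgeR adjusted p = 2.85e-06). Of 9 nuclear genes of complex III, 3 rose and none fell: Uqcrb, a small subunit that binds ubiquinone, by 0.52 (adjusted p = 0.0264), and the core protein Uqcrc1 and cytochrome c1, Cyc1, by 0.37 each (adjusted p = 0.00197 and 0.00165, edgeR).

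In complex IV 5 of 15 rose and 2 fell. Cox5a, a subunit on the matrix side of the complex, had 168, 175 and 163 CPM in stimulated controls, against 108, 105 and 109 CPM in vehicle controls. The 2 groups did not overlap and the change was +0.66 ± 0.07 (log2, edgeR adjusted p = 5.75e-07). Cox6a1, the widely expressed form of subunit VIa, had 300, 349 and 334 CPM in stimulated controls against 215, 225 and 244 CPM in vehicle controls, again apart, and rose by 0.52 ± 0.14 (adjusted p = 0.00341, edgeR). Cox7a2 rose by 0.46, Cox5b by 0.44 and Cox6c by 0.39 (edgeR adjusted p = 0.0119, 0.0048 and 0.0422), the last 2 of these named after their values were seen.

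Isoform partners in complex IV did not move alike. Cox6a2, the form of subunit VIa known from heart and skeletal muscle, was at a low level and fell by 0.46 in stimulated controls (edgeR adjusted p = 0.0227), while its partner Cox6a1 rose. Cox7a2l, which is known to take part in joining complexes III and IV into supercomplexes, fell by 0.42 (adjusted p = 0.00327, edgeR), while Cox7a2 rose. The muscle form Cox7a1 differed by -0.32 and Cox6b2, the testis form of subunit VIb, by -0.76, and neither passed. Cox4i1, Cox6b1 and Cox8a differed by 0.05, 0.20 and 0.13 and did not pass. Their alternative forms Cox4i2, Cox8b and Cox8c were below the mean count.

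Ndufa4, a complex IV subunit despite its name, differed by 0.17 ± 0.15 in control cells and did not pass the test, whereas its paralogue AA467197 changed more than any member. AA467197, also called Nmes1, is no member. In human cells its counterpart is known to take the place of NDUFA4 in complex IV during inflammation. It had 115, 146 and 130 CPM in stimulated controls, against 3.59, 4.52 and 3.79 CPM in vehicle controls, a rise of 5.04 ± 0.19 (log2, edgeR adjusted p = 1.33e-12). In the libraries labelled knockout it had 153, 130 and 136 CPM when stimulated, against 10.7, 6.33 and 5.94 CPM with vehicle, a rise of 4.21 ± 0.18 (edgeR adjusted p = 5.24e-12). With vehicle it was higher in libraries labelled knockout than in controls, by 0.93 ± 0.20 (adjusted p = 0.0125, edgeR), or by 0.63 without replicate 1 (adjusted p = 0.00763).

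**Figure D3:**
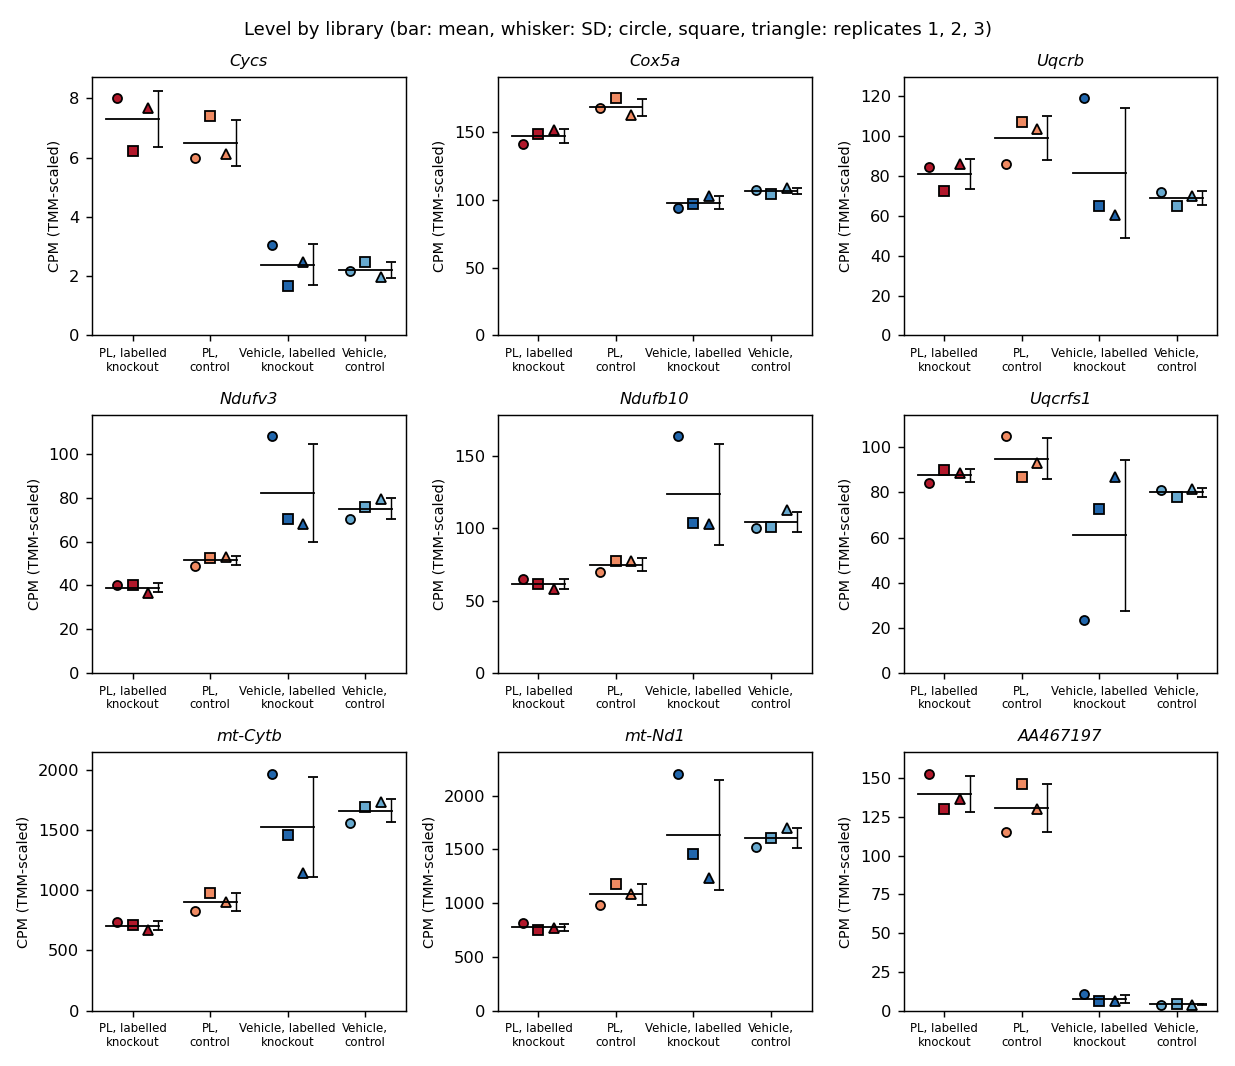
Level in CPM (TMM-scaled, linear axes from 0) of 8 members and of the Ndufa4 paralogue AA467197 in each library, with the group mean as a bar and the SD of 3 libraries as a whisker. Cycs, Cox5a and AA467197 are higher in every stimulated library than in any vehicle library, mt-Cytb, mt-Nd1, Ndufv3 and Ndufb10 are lower, and Uqcrfs1 at 23.3 CPM is lowest in replicate 1 of the vehicle libraries labelled knockout.

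In complex I, 3 of 36 nuclear genes rose and 3 fell in control cells. Ndufs4, an accessory subunit of the NADH-oxidising arm, rose by 0.65 ± 0.14 (log2, adjusted p = 0.00086), Ndufb6 of the membrane arm by 0.34 (adjusted p = 0.0215) and Ndufab1, the mitochondrial acyl carrier protein, by 0.31 (adjusted p = 0.0121, edgeR for all 3). The 3 that fell are named after their values were seen. Ndufv3, a small accessory subunit of the NADH-oxidising module, had 49.0, 52.7 and 52.8 CPM in stimulated controls against 70.2, 75.8 and 79.3 CPM in vehicle controls, without overlap (-0.54 ± 0.14, edgeR adjusted p = 0.00251). Ndufb10 fell by 0.49 (adjusted p = 0.00642) and Ndufs1, the largest iron-sulphur subunit, by 0.31 (adjusted p = 0.00122, edgeR).

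Sdha, the flavoprotein of complex II, had 255, 261 and 267 CPM in stimulated controls, against 298, 301 and 318 CPM in vehicle controls. The groups were apart by a small amount, -0.23 ± 0.07 (log2, edgeR adjusted p = 0.00657). Sdhb, the iron-sulphur subunit, and the membrane anchors Sdhc and Sdhd differed by -0.16, -0.23 and 0.07 and did not pass. Acod1, the enzyme whose product itaconate inhibits succinate dehydrogenase, averaged 2596 CPM in stimulated libraries labelled knockout, 2501 CPM in stimulated controls, 13.0 CPM in vehicle libraries labelled knockout and 9.10 CPM in vehicle controls.

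In complex V only the catalytic subunit Atp5b passed. It had 636, 612 and 607 CPM in stimulated controls, against 449, 441 and 455 CPM in vehicle controls, without overlap, and rose by 0.46 ± 0.07 (log2, edgeR adjusted p = 1.27e-05). Its partner in the catalytic head, Atp5a1, differed by 0.01 ± 0.07. The 3 genes for the same c-ring protein were far apart in level, with Atp5g3 at 52.6 ± 3.74 RPKM on average in vehicle controls and Atp5g1 and Atp5g2 below 1 RPKM on average, and their differences of 0.33, 0.08 and -0.58 (log2) did not pass. Atpif1, the inhibitor of ATP hydrolysis by complex V and no member, averaged 75.1 ± 7.24 CPM in stimulated controls against 102 ± 4.88 CPM in vehicle controls (SD, n = 3 each) and fell by 0.45 (adjusted p = 0.0202, edgeR).

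Without replicate 1 of the vehicle libraries labelled knockout, the control comparison itself is made on the same 6 libraries but with a smaller estimate of spread, and 27 nuclear members rose and 18 fell, beside 35.0% and 37.6% of 13148 genes tested. The 13 and 6 called with it were all among them. Complex I then split into 7 higher and 12 lower, complex II had 3 lower, complex III 6 higher and 1 lower, complex IV 8 higher and 2 lower and complex V 5 higher and none lower. The same 6 mitochondrial genes fell.

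Known regulators of respiratory genes bind close to their starts, and promoter sequence is shown for 3 nuclear members. Cox6a1, which rose, and Sdha, which fell, were picked from the called members that hold the motif of nuclear respiratory factor 1. Their matches to it therefore followed from the choice. Uqcrc1, which also holds it and rose, is not shown. Cycs was picked for having the largest rise. RefSeq promoters (GRCm38.p6) were matched by symbol for 66 of 82 nuclear members, as 71 windows of 250 bases before to 50 after the start. The palindrome-like motif of nuclear respiratory factor 1, read on both strands, was in 25.4% of these windows and in 4.60% of all 32851 RefSeq windows. The ETS and GABP motif CCGGAAG was in 22.5% against 8.86%, the YY1 core AAGATGG in 14.1% against 6.34%, the estrogen-related receptor core AAGGTCA in 11.3% against 4.72% and the PPAR-RXR direct repeat, which holds most letters of the previous core, in 0 against 0.0396%. The 150 bases before each start follow, all 3 genes being on the minus strand, with motif matches in capitals (nuclear respiratory factor 1 in Cox6a1 and Sdha, ETS and GABP in its reverse complement in Cox6a1). They lie at chr5:115348959-115349108 for Cox6a1, chr13:74350241-74350390 for Sdha and chr6:50566570-50566719 for Cycs.
Cox6a1: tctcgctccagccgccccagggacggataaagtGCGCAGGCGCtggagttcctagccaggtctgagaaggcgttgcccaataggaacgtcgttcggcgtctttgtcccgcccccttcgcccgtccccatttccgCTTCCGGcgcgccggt
Sdha: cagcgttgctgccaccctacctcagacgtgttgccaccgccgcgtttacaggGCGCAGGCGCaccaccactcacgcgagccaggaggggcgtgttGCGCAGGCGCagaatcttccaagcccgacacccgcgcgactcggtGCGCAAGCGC
Cycs: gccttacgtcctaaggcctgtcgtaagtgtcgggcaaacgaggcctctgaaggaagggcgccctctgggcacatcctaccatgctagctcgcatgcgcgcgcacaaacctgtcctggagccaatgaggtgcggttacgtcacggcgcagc
In these windows Cox6a1 had the respiratory factor motif at 162 and 117 bases before the start, the first of them outside the stretch shown, and Sdha had it at 98, 55 and 10 bases before the start. Cycs had none of the 5 motifs. A match is a run of letters and not a measured site. In stimulated controls against vehicle controls, the median log2 change was 0.09 over the 17 genes with the respiratory factor motif, of which 2 rose and 1 fell, and 0.05 over the 49 genes without it, of which 8 rose and 3 fell.

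In the libraries labelled knockout, most mitochondrial members and 42 nuclear members fell with stimulation. All 7 mitochondrial members were lower on average and 6 fell, again all but mt-Co1, with a median of -0.70. Of the nuclear members 5 rose and 42 fell, with a median of -0.36, where 33.7% of all genes rose and 35.6% fell. Libraries did not overlap for 5 nuclear members that were higher and 44 that were lower, beside 34.6% and 35.8% of all genes. The vehicle group of this comparison contains the library that stood apart: without it 13 rose and 36 fell, with a median of -0.14, beside 35.0% and 36.2% of all genes. Of the 42 and the 36 that fell, 35 were shared. Scaling by total counts gave 2 nuclear members higher, Cycs and Cox5a, and 72 lower, and 2676 genes higher and 6570 lower in place of 4356 and 4600. No library is shared with the comparison in control cells.

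By complex, and with all libraries, 1 of 36 nuclear genes of complex I rose and 24 fell, 3 of 4 fell in complex II, 1 rose and 2 fell in complex III, 1 rose and 5 fell in complex IV and 1 rose and 8 fell in complex V. Without replicate 1 these became 3 and 21 in complex I, 0 and 3 in complex II, 5 and 2 in complex III, 2 and 3 in complex IV and 2 and 7 in complex V. The direction of complex III as a whole therefore rested on that library: its median was -0.00 with it and 0.17 without it. Complex I had a median of -0.44 with it and -0.22 without it.

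Cycs had 8.00, 6.23 and 7.67 CPM in stimulated libraries labelled knockout, against 3.04, 1.67 and 2.47 CPM with vehicle, without overlap, and rose by 1.63 ± 0.19 (log2, edgeR adjusted p = 1.38e-06). Cox5a, Atp5b, Ndufab1 and Cyc1 were the other nuclear genes that rose, by 0.59, 0.44, 0.38 and 0.22 (edgeR adjusted p = 1.92e-06, 2.02e-05, 0.00307 and 0.0407). Each of these 5 also rose in control cells.

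Ndufv3 had 40.2, 40.0 and 36.6 CPM in stimulated libraries labelled knockout, against 108, 70.3 and 68.1 CPM with vehicle, a fall of 1.08 ± 0.14 on the log2 scale (edgeR adjusted p = 4.4e-06), or 0.83 without replicate 1. The groups were apart with or without that replicate. Ndufb10 fell by 1.00 and without replicate 1 by 0.75 (edgeR adjusted p = 1.18e-05 and 5.23e-11). Other low values were Cox7a1 at -1.13, Atp5s at -0.87, Uqcr11, a small complex III subunit, at -0.85 and Atp5k at -0.80 (edgeR adjusted p = 0.00177, 0.00122, 0.000141 and 0.00271). Without replicate 1 these were -0.93 for Cox7a1, -0.73 for Atp5s, -0.57 for Uqcr11 and -0.43 for Atp5k, and all 4 still passed. Cox7a1 and Atp5s averaged under 3 CPM in at least 1 group. Cox7a2l fell by 0.65 and Atpif1 by 1.02 (edgeR adjusted p = 7.17e-05 and 3.18e-05), or by 0.49 and 0.73 without replicate 1.

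mt-Cytb had 740, 709 and 673 CPM in stimulated libraries labelled knockout, against 1971, 1462 and 1146 CPM with vehicle, and mt-Nd1 had 813, 747 and 769 CPM against 2207, 1459 and 1231 CPM. Both pairs of groups were apart, with changes of -1.11 ± 0.14 and -1.07 ± 0.15 (log2, edgeR adjusted p = 3.75e-06 and 1.34e-05), or -0.88 and -0.80 without replicate 1. mt-Nd2 changed by -0.99, mt-Nd6 by -0.70, mt-Nd4 by -0.67 and mt-Nd5 by -0.62, and without replicate 1 by -0.74, -0.53, -0.45 and -0.55. mt-Co1 had 1538, 1545 and 1426 CPM against 2141, 1667 and 1200 CPM, which overlapped.

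Set against the nuclear genes, the mitochondrial sum was 52.5, 52.0 and 49.7 per 100 of the nuclear sum in stimulated libraries labelled knockout and 55.0, 56.2 and 54.2 in stimulated controls, against 71.3, 78.8 and 63.8 in vehicle libraries labelled knockout and 83.4, 90.4 and 84.5 in vehicle controls. The 6 stimulated libraries were all below the 6 vehicle libraries, and within each treatment every library labelled knockout was below every control. The ratio cancels the scaling of a library. Without mt-Co1 the means were 35.7 ± 1.01 in stimulated libraries labelled knockout and 39.4 ± 0.461 in stimulated controls, and 57.1 ± 5.20 in vehicle libraries labelled knockout and 67.6 ± 2.52 in vehicle controls (SD, n = 3 each). No test was made on these sums.

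**Figure D4:**
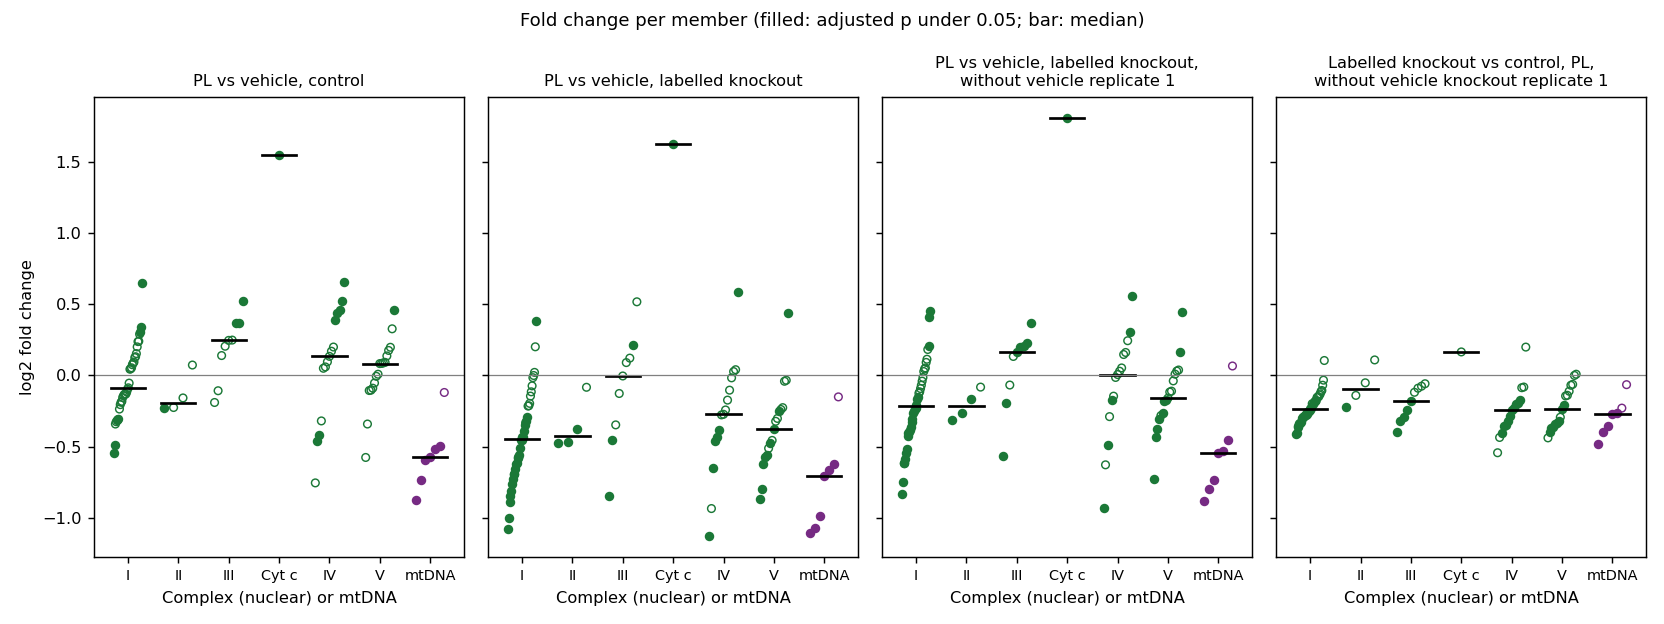
Log2 fold change of each member (points, filled where the edgeR adjusted p is under 0.05) with the median (bar) for each complex of nuclear genes and for the mitochondrially encoded genes, in 4 comparisons. The mitochondrial median is -0.57 in control cells and -0.70 in libraries labelled knockout, Cycs is the highest point in both, and in the last panel, made without vehicle replicate 1 of the libraries labelled knockout, 44 nuclear points are filled and all 44 lie below 0.

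The summed level of the nuclear members of a complex is given with no test. Complex I summed to 2078, 1986 and 2018 RPKM in stimulated libraries labelled knockout and 2153, 2537 and 2423 RPKM in stimulated controls, against 3764, 2377 and 2333 RPKM in vehicle libraries labelled knockout and 2344, 2336 and 2580 RPKM in vehicle controls. Complex IV summed to 1989, 1938 and 1949 RPKM in stimulated libraries labelled knockout and 2176, 2503 and 2361 RPKM in stimulated controls, against 2843, 1851 and 1875 RPKM in vehicle libraries labelled knockout and 1883, 1890 and 2061 RPKM in vehicle controls. The stimulated controls were thus above the vehicle controls in complex IV, and overlapped with them in complex I. Complex III was also above vehicle in stimulated controls, at 943 to 1059 RPKM against 828 to 923 RPKM, and complexes II and V overlapped.

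Under stimulation, members were lower in libraries labelled knockout than in controls by a small amount. The median log2 difference over the 82 nuclear members was -0.23 and 76 of them were negative, against a median of -0.01 for all genes. With all libraries in the fit, edgeR called 0 nuclear members, beside 16.1% of all genes in either direction and 6.10% lower. At an unadjusted edgeR p under 0.05, 16 passed, all lower, beside 3972 of all 12914 genes in either direction. DESeq2 called 1, also lower, beside 18.8% of all genes in either direction. Total-count scaling gave 27 lower and none higher, and split all genes into 841 higher and 1578 lower in place of 1293 and 788. Of the mitochondrial members 1 was called, mt-Nd1. Libraries did not overlap for 53 nuclear members that were lower, 64.6% of them, where 19.8% of all genes did so, and for 2 that were higher, Ndufs1 and Sdha, where 22.4% of all genes did so.

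Without replicate 1 of the vehicle libraries labelled knockout, which is in neither group of this comparison, 44 nuclear members were called lower and none higher, beside 13.9% and 17.1% of all genes. Their differences ran over -0.41 to -0.17 with a median of -0.29. They were 20 of 36 in complex I, 1 of 4 in complex II, 5 of 9 in complex III, 10 of 15 in complex IV and 8 of 17 in complex V. All 44 were among the 46 called when only the 6 stimulated libraries were fitted, where 1708 of 11743 genes were lower and 2103 higher. With a second library left out as well, the number called lower ranged over 30 to 55, and with 1 of the other 11 libraries left out in place of replicate 1 it was 0 to 4.

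Ndufv3, in the values given above, was lower in every stimulated library labelled knockout than in any stimulated control, by 0.40 ± 0.14 (log2, edgeR adjusted p = 0.0613, and 2.31e-05 without replicate 1). Cox6a1 had 256, 268 and 249 CPM in stimulated libraries labelled knockout, against 300, 349 and 334 CPM in stimulated controls. It was apart by 0.35 on the log2 scale, the libraries labelled knockout being lower, with an edgeR adjusted p of 0.0998 and 4.83e-05 without replicate 1. Ndufa4 had 110, 100 and 104 CPM against 124, 146 and 147 CPM in controls, also apart (-0.41 ± 0.15, edgeR adjusted p = 0.0836, and 1.06e-05 without replicate 1), while its paralogue AA467197 overlapped between these groups.

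Cox5a was lower by 0.19 (adjusted p = 0.0743, and 0.00883 without replicate 1, edgeR) and Atpif1 by 0.35 (adjusted p = 0.143, and 1.65e-04 without it). Cycs, at 0.17 ± 0.17, and Atp5a1, at 0.00 ± 0.07, did not pass in either fit. Sdha had 291, 280 and 274 CPM in stimulated libraries labelled knockout, against 255, 261 and 267 CPM in stimulated controls, and this difference of 0.11 ± 0.07 (log2) did not pass although the libraries did not overlap.

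mt-Nd1 had 813, 747 and 769 CPM in stimulated libraries labelled knockout, against 985, 1177 and 1087 CPM in stimulated controls, a difference of -0.48 ± 0.15 (log2, edgeR adjusted p = 0.0428, and 2.97e-06 without replicate 1). With the replicate number as a block this call was lost (adjusted p = 0.0679). mt-Nd2 and mt-Cytb were lower by 0.40 and 0.36 without overlap and did not pass with all libraries in the fit (edgeR adjusted p = 0.0721 and 0.0968). They passed without replicate 1 (adjusted p = 2.53e-05 and 0.00104, edgeR), with the 2 groups alone and, with replicate 1 kept, under total-count scaling, without a filter and without vehicle replicate 3 of the libraries labelled knockout. mt-Nd5 had 434, 402 and 386 CPM against 421, 437 and 419 CPM, which overlapped. Without replicate 1, 5 of the 7 mitochondrial members were called lower.

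Markers of other cells also differed between these groups. The summed level of 8 fibroblast and mesothelial markers, all detected and led by Dcn, Col1a1 and Col1a2, was 181 to 329 CPM in stimulated libraries labelled knockout and 123 to 142 CPM in stimulated controls. That of 7 neutrophil markers, mostly Csf3r, was 143 to 173 CPM against 106 to 115 CPM. Ly6g had 0 counts in all libraries, and S100a9 and Retnlg were near 0. Single neutrophil markers did not all move with the sum. Csf3r averaged 136 CPM against 90.6 CPM and Mmp8 10.8 CPM against 4.75 CPM. S100a8 went the other way, at 6.93 CPM against 14.99 CPM, and Cxcr2 was near 0, at 0.0196 CPM against 0.0351 CPM. The sum of the macrophage markers, mostly Lgals3 and Cd68, overlapped at 14421 to 14787 CPM and 14054 to 15167 CPM. Means of single macrophage markers differed in both directions. Cd14 averaged 1493 CPM against 2090 CPM and Lyz2 84.3 CPM against 114 CPM. Adgre1 averaged 754 CPM against 597 CPM and Mertk 128 CPM against 87.3 CPM. The part of other cells in the difference between the labels was not tested.

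With vehicle, no member was called between the labels. By edgeR 0 of 82 nuclear members passed, beside 3.80% of all genes in either direction, 2.11% higher and 1.69% lower. At an unadjusted edgeR p under 0.05 there were 3 higher and 1 lower, beside 2064 of all 12914 genes in either direction. DESeq2 also called 0, beside 5.27% of all genes. The nuclear median was 0.19 with replicate 1 and -0.05 without it. Of the mitochondrial members 0 were called by either tool with replicate 1, and 1 had an unadjusted p under 0.05. Without replicate 1, 6 were called lower in the libraries labelled knockout, by 0.23 to 0.35 on the log2 scale, beside 2.72% of all genes lower and 3.28% higher, and they were all but mt-Co1. This count rested on few libraries: it was 1 when vehicle control replicate 2 or 3 was left out too. With replicate 3 of the libraries labelled knockout left out too, that group held 1 library, assumed to vary like the other groups, and the count was 0. Markers of other cells also differed with vehicle. The summed fibroblast and mesothelial markers were at 144 to 189 CPM in libraries labelled knockout and 110 to 132 CPM in controls, and the neutrophil markers at 111 to 114 CPM and 77.1 to 80.6 CPM, neither overlapping. The widest gap among the neutrophil markers was that of Mmp8, at a mean of 43.7 CPM against 16.4 CPM. Csf3r averaged 63.0 CPM against 57.2 CPM and S100a8 5.24 CPM against 4.99 CPM. The sum of the macrophage markers overlapped, at 17988 to 22995 CPM and 17020 to 19496 CPM. Means of single macrophage markers again differed in both directions, with Cd14 at 470 CPM against 270 CPM and Mertk at 44.1 CPM against 66.2 CPM. The part of other cells in this difference was not tested.

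The test of whether the response to palmitate plus LPS differed between the labels called 0 members with all libraries, beside 8.05% of all genes in either direction, 4.70% higher and 3.35% lower. The smallest edgeR adjusted p was 0.0597, for Cox6a1. At an unadjusted edgeR p under 0.05 there were 35 nuclear and 1 mitochondrial members, all with the lower response in libraries labelled knockout. Of all 12914 genes, 3456 passed that cutoff in either direction. DESeq2 called 3 nuclear and 0 mitochondrial members, beside 13.9% of all genes in either direction. Without the filter on low counts edgeR called 38 nuclear and 2 mitochondrial members, all with a lower response. In that fit 788 of 24792 genes had a lower response. Total-count scaling gave 14 nuclear members with a lower response, and 388 genes higher and 788 lower in place of 607 and 432. Without replicate 1 edgeR called 10 nuclear members, beside 5.59% of all genes with a lower response and 7.74% with a higher one, with differences of -0.38 to -0.29. These 10, named after their values were seen, were Ndufa5, Ndufb11, Ndufc1 and Ndufv3 of complex I, Uqcr11 of complex III, Cox6a1, Cox6c and Ndufa4 of complex IV and Atp5c1 and Atp5g3 of complex V. The number was 2 to 32 when a second library was left out as well. With replicate 1 kept, leaving out vehicle replicate 2 or 3 of the libraries labelled knockout gave 8 and 22. The median over nuclear members was -0.42 with replicate 1 and -0.17 without it, and over mitochondrial members it was -0.21 and -0.01.

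Genes that build and serve the chain were taken from lists of known function, and the counts below stand beside 32.0% of all genes higher and 34.7% lower in control cells and 33.7% and 35.6% in libraries labelled knockout. Without replicate 1 of the vehicle libraries labelled knockout these shares were 35.0% and 37.6% in control cells and 35.0% and 36.2% in libraries labelled knockout. None of these lists was tested as a whole. The mitochondrial ribosome, which translates the mitochondrial messages, moved mostly upwards in control cells: 38 of 75 tested genes rose and 6 fell, with a median of 0.27, led by Mrps18b (+1.26), Mrpl32 (+1.16) and Mrpl38 (+0.95). In libraries labelled knockout 25 rose and 19 fell, with a median of 0.03, and without replicate 1 these were 37 and 19, with a median of 0.21. Of 23 protein import genes, 12 rose and 2 fell in control cells, among the former Timm23 (+1.10) and Timm17a (+1.07) of the inner membrane translocase. In libraries labelled knockout 8 rose and 5 fell, or 11 and 5 without replicate 1. Between the labels under stimulation, 3 of 75 mitochondrial ribosome genes and 2 of 23 import genes were lower, beside 6.10% of all genes, and without replicate 1 these were 30 and 7, beside 13.9%.

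For mitochondrial DNA transcription and replication, 8 of 22 genes rose and 3 fell in control cells, a share of rises close to that of all genes. In libraries labelled knockout 11 rose and 2 fell, or 11 and 3 without vehicle replicate 1 of these libraries. Pnpt1, the mitochondrial polynucleotide phosphorylase that degrades RNA, rose by 1.57 in control cells and 2.38 in libraries labelled knockout. Tfam, the packaging and transcription factor of mitochondrial DNA, rose by 0.99 and 1.05, while the messages of 6 mitochondrial members fell in both. Of 13 biogenesis regulators 7 rose and 4 fell in each genotype. Ppargc1a, a coactivator of respiratory genes, fell by 3.95 in control cells and 2.74 in libraries labelled knockout, and its relative Ppargc1b by 1.47 and 1.63. Pprc1 and Gabpa, named after their values were seen, went the other way. Pprc1 rose by 0.97 in control cells and 1.31 in libraries labelled knockout, and Gabpa by 0.78 and 0.84. Under stimulation Ppargc1a was higher in the libraries labelled knockout, by 1.73 ± 0.37 (log2, SE, edgeR adjusted p = 0.00512).

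Among 47 assembly factors 11 rose and 11 fell in control cells, and 11 rose and 21 fell in libraries labelled knockout. Without replicate 1 of the vehicle libraries labelled knockout the latter were 12 and 18, with a median of -0.08 in place of -0.22. Coa5, needed for complex IV assembly, rose by 1.63 in control cells and 2.38 in libraries labelled knockout, and Sco1, a copper chaperone of complex IV, by 1.21 and 1.75. Ndufaf7, a methyltransferase of complex I assembly, fell by 1.51 and 2.15. Between the labels under stimulation 3 assembly factors were higher and 4 lower, beside 1293 and 788 of all 12914 genes, and without replicate 1 there were 3 higher and 18 lower, beside 17.1% and 13.9%. Nubpl, which delivers iron-sulphur clusters to complex I, was lower in stimulated libraries labelled knockout than in stimulated controls by 1.54 (edgeR adjusted p = 2.93e-04) and was the 1 gene of the 47 that edgeR called between the labels with vehicle when all libraries were fitted, where it was lower by 0.89 (edgeR adjusted p = 0.00349).

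In the smaller lists, where 1 gene is a large share of the list, 4 of 13 genes of coenzyme Q synthesis rose and 3 fell in control cells. In libraries labelled knockout 5 rose and 5 fell, or 5 and 4 without vehicle replicate 1 of these libraries. Of 10 cristae genes 4 rose and 3 fell in control cells, among them Immt (+0.83), which shapes cristae junctions. In libraries labelled knockout 3 rose and 6 fell, or 3 and 5 without replicate 1. Of 8 carriers, porins and uncoupling genes 2 rose and 4 fell in control cells. In libraries labelled knockout 1 rose and 6 fell, or 2 and 5 without replicate 1. Ucp2, a carrier of the inner membrane, fell by 1.13 and 1.57 and was lower in stimulated libraries labelled knockout than in stimulated controls by 0.49 (edgeR adjusted p = 0.00236).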

How the data were processed

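RNA-seq libraries of mouse peritoneal macrophages (12, in 4 groups of 3) were assigned to groups by their titles. Per the labels' protocols, column-purified total RNA (Ambion) was made into libraries with Clontech's SMARTer v1 kit. Tools named in the submitters' processing notes are featureCounts 1.45, Subread, STAR 2.0.4b and bcl2fastq 2.0, with GRCm38 as the build. The sources used here do not give the annotation release, strand setting or handling of multiply matching reads. A gene and its antisense or overlapping partner therefore cannot be told apart (Cox5a, Atp5j, Ndufb6, mt-Nd5 and mt-Nd6 have one). The authors deposited a raw count, a CPM (counts relative to a library's sum) and an RPKM (CPM divided by exon length) for each of 41388 Ensembl genes. In the deposited tables the CPM and RPKM followed from the counts without deviation for genes above 1 CPM or RPKM. Symbols were found for 40254 of the IDs in an ID-to-symbol table.

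From the deposited counts, filterByExpr (by group) retained 12914 genes, holding 99.92% or more of every library, and TMM set the scale. All 12 libraries entered 1 robust quasi-likelihood fit with edgeR 4.0.16 under R 4.3.3, each group having its own mean. There were 5 comparisons, of genotype label within treatment, of treatment within label and the interaction (the treatment effect in libraries labelled knockout minus the one in controls). Benjamini-Hochberg adjustment ran over every gene of a comparison, with a threshold of 0.05. The fit was checked on simulated counts with known changes. CPM and RPKM printed here were recomputed with TMM-scaled totals, and the SE of a log2 change is its size divided by the square root of F. Sequence copies were found with BLAST among GENCODE M21 transcripts. Alternatives were DESeq2 1.42.0, other scalings, no filter, the 2 groups alone, the replicate number as a block and each library left out, and, chosen after the data were seen, replicate 1 of the vehicle libraries labelled knockout left out together with each other library or choice.

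The members and lists were chosen with earlier results of these data known. Genes named are the mitochondrial members, complex II, Cyc1, Cycs, the isoform sets with AA467197, Atpif1, up to 2 lowest and 2 highest called members per complex and comparison, up to 3 genes of smallest p per list, Pparg and Acod1. Other names were chosen after their values were seen, as were Uqcrfs1, Atp5a1, Ndufb2, Ppargc1b and the mitochondrial ribosomal RNAs.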

Additional observations from a re-analysis of the deposited data

Results flagged for a closer look

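The response to palmitate plus LPS differed between the libraries labelled knockout and the controls, by edgeR's test of the interaction, for 11 genes that work with the respiratory chain and are not subunits of it. Of these, 10 came from the 211 tested genes of the lists above, a share of 4.74%, where 8.05% of all genes were called, and the other is Acod1. Values are the log2 response in libraries labelled knockout minus that in controls.

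In assembly and RNA handling the difference was positive for Coa5 at 0.75 (adjusted p = 0.00654), where the response was 2.38 in libraries labelled knockout and 1.63 in controls, and for Pnpt1 at 0.81 (adjusted p = 0.00163), with 2.38 and 1.57. Pnpt1 was lower in vehicle libraries labelled knockout than in vehicle controls by 0.52 (adjusted p = 0.00297, edgeR) and higher by 0.29 under stimulation (adjusted p = 0.0319, edgeR), so the larger part of its difference in response lay in the vehicle libraries. Coa5 differed by -0.10 with vehicle and was higher by 0.65 under stimulation (edgeR adjusted p = 0.653 and 4.08e-04). It was negative for the complex I assembly factors Ndufaf3 at -0.70 (adjusted p = 0.0452), Ndufaf4 at -0.61 (adjusted p = 0.0345) and Ndufaf7 at -0.64 (adjusted p = 0.0476).

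In the mitochondrial ribosome it was negative for Mrpl52 at -0.72 (adjusted p = 0.0345), Mrpl57 at -0.63 (adjusted p = 0.0445) and Mrps16 at -0.76 (adjusted p = 0.0493). For the cristae genes it was 0.63 for Opa1 (adjusted p = 0.0416), a fusion protein of the inner membrane, and -0.60 for Phb2 (adjusted p = 0.0128), a prohibitin. It was -0.46 for Acod1 (adjusted p = 0.0340), whose responses were 7.64 in libraries labelled knockout and 8.10 in controls. Acod1 was higher in libraries labelled knockout by 0.52 with vehicle (adjusted p = 0.00436, edgeR) and differed by 0.05 under stimulation (adjusted p = 0.684, edgeR). Without replicate 1 of the vehicle libraries labelled knockout all 11 had the same sign and an adjusted p under 0.05, and the sizes were 0.61 for Coa5, 0.74 for Pnpt1, -0.51 for Mrps16, -0.53 for Phb2 and -0.50 for Acod1. Across the other settings the adjusted p stayed under 0.05 for Coa5, Pnpt1 and Phb2, with highest values of 0.0274, 0.00958 and 0.0483, and the other 8 lost the call in at least 1 setting, with highest values of 0.0957 for Acod1 to 0.133 for Mrps16.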

How the results depend on the processing

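Counts of members called depended on replicate 1 of the vehicle libraries labelled knockout, on scaling and on the filter on low counts. With 1 library left out, or that replicate and 1 more, the nuclear members called lower between the labels under stimulation ranged over 0 to 55 and the mitochondrial ones over 0 to 6. In control cells 9 to 38 nuclear members rose and 5 to 26 fell with stimulation, and 6 mitochondrial ones fell each time. In libraries labelled knockout 4 to 14 nuclear members rose and 27 to 51 fell, with 0 to 1 mitochondrial members higher and 6 to 7 lower. The interaction had 0 to 32 nuclear members lower, 0 to 1 mitochondrial higher and 0 to 2 lower, and with vehicle 0 to 7 mitochondrial members were lower and no nuclear member was called.

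For stimulated libraries labelled knockout against stimulated controls, 27 nuclear members were lower with total-count scaling, 23 without a filter, 46 with the 2 groups alone and 1 by DESeq2, and the mitochondrial counts were 5, 5 and 6 for the first 3. With the replicate left out these were 64 and 7 with total-count scaling, 42 and 6 with the replicate block and 42 and 5 by DESeq2. Of all genes, 1578 of 12914 were lower with total-count scaling and 1008 of 24792 without a filter. With the 2 groups alone 1708 of 11743 were lower, and by DESeq2 849 of 12162. With the replicate left out 2746 of 13148 were lower with total-count scaling, 1736 with the block and 1526 of 11873 by DESeq2. In control cells stimulation gave 3 higher and 41 lower with total-count scaling, 11 lower without a filter and 23 higher and 18 lower with the 2 groups alone. With the replicate left out these were 6 and 59 with total-count scaling, 25 and 19 with the block and 27 and 13 by DESeq2. In libraries labelled knockout it gave 2 higher and 72 lower with total-count scaling, and with the replicate left out 2 and 71, 14 higher with the block and 13 higher by DESeq2. The interaction had 14 nuclear members lower with total-count scaling, 38 without a filter and 3 by DESeq2, and 33, 5 and 8 with the replicate left out under total-count scaling, the block and DESeq2. Mitochondrial members lower in the interaction were 2 without a filter and 1 with total-count scaling and the replicate left out. With vehicle, no filter gave 2 nuclear members higher and 1 lower, and 6, 6 and 4 mitochondrial members were lower with the replicate left out under total-count scaling, the block and DESeq2. The direction turned for a few gene values. With total-count scaling Cox4i1 was at -0.28 and Sdhd at -0.26 in control cells, and Cox7a2 at -0.31 and Cyc1 at -0.16 in libraries labelled knockout. With vehicle, mt-Nd1 was at -0.26 without replicate 1 and 0.19 without replicate 3 of the libraries labelled knockout. For changes not made by fewer samples or genes, the cause was not tested.

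Libraries of the same number did not deviate together: over 18 pairs the correlation of deviations from group means ran over -0.309 to 0.067 with a median of -0.023. The numbers were therefore not taken as pairs. Over the 36 pairs of different number and group it ran over -0.181 to 0.271 with a median of 0.008. Of these, 6 were above 0.1, so some libraries of different groups did share deviations. With the replicate number as a block and all libraries, mt-Nd1 was no longer called between the labels under stimulation, leaving 0 mitochondrial members, and the other counts stayed within 1.5 times. Depth was not the limit for most members, but 6, namely Cycs, Cox6b2, Cox7a1, Atp5g2, Atp5l and Atp5s, averaged under 3 CPM in at least 1 group.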
